A study of Mus musculus with 6 samples.

Results

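The lymphatic endothelial genes examined here are 10 genes, taken by name from the study's 24520 gene rows: Lyve1, Prox1, Flt4, Pdpn, Sned1, Fgl2, Pard6g, Mmrn1, Reln and Maf. They were measured by RNA sequencing in mouse lung endothelial cells, the cells that line vessels, isolated by fluorescence-activated cell sorting. There were 3 libraries labelled KO and 3 labelled WT for Dnmt3a, a DNA methyltransferase. The labels used here state neither the allele, any Cre driver, strain, age or sort antibodies, nor whether each library came from its own animal, so p-values measure the spread between these libraries, which may be technical in part. Replicate 1 of each label was female and replicates 2 and 3 were male by Xist and Y-linked genes.

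Lymphatic endothelium arises from veins when the homeobox factor Prox1 is switched on, and it is kept by Prox1 together with signalling of VEGF-C through its receptor Flt4. Lyve1, a hyaluronan receptor related to Cd44, is a widely used surface marker of lymphatic capillaries. It is not exclusive to them: some blood endothelia and a class of tissue macrophages carry it as well. Flt4 is likewise found on some blood capillaries, and podoplanin, the product of Pdpn, on alveolar type 1 epithelium.

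The libraries held 28136194 to 39999172 estimated counts. Dnmt3a itself had 5090, 4878 and 4750 counts in KO replicates 1, 2 and 3, against 1235, 1079 and 1198 in WT replicates 1, 2 and 3 (log2 fold change 2.22, SE 0.11, edgeR adjusted p = 0.00157). The targeted gene thus ran against the KO label. All directions given for the genes that follow compare libraries by these labels as they stand (KO over WT), and single exons were not analysed here. Endothelial markers were abundant, with 15 genes summing to 17527 to 20407 CPM in KO libraries and 17097 to 20887 CPM in WT libraries (CPM, counts scaled to library size and TMM factor).

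The 10 genes lay at very different levels, with the most specific lymphatic markers lowest. Transcript levels, given here in TPM because it corrects for length, put Lyve1 at 120 to 730 TPM, Flt4 at 42.1 to 63.8 TPM and Pard6g at 24.1 to 45.3 TPM. Fgl2 and Sned1 followed at 1.18 to 6.34 and 1.37 to 5.03 TPM, and Maf at 0.537 to 1.55 TPM. Mmrn1, Prox1 and Pdpn, which are more restricted to lymphatics within the endothelium, lay at 0.177 to 1.72, 0.13 to 0.678 and 0.218 to 0.515 TPM, and Reln was listed at 0 in 4 of 6 libraries. The ranges of neighbours in this order overlapped except between Lyve1 and Flt4, between Pard6g and Fgl2 and between Pdpn and Reln, although Flt4 was above Pard6g in 6 of 6 libraries. Prox1 transcripts amounted to 0.0735% to 0.12% of Lyve1 transcripts in KO libraries and 0.0897% to 0.194% in WT libraries. The lymphatic chemokine gene Ccl21a, at 0 to 0.198 CPM in KO libraries and 0 to 0.186 CPM in WT libraries, and Pdpn, at 0.231 to 0.473 and 0.213 to 0.53 CPM, lay close to the counting floor of 3 counts (0.0796 to 0.102 CPM by library). In the same libraries Lyve1 was among the 1349 most abundant of 24520 genes, so its level was not matched by the defining lymphatic markers.

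**Figure D1:**
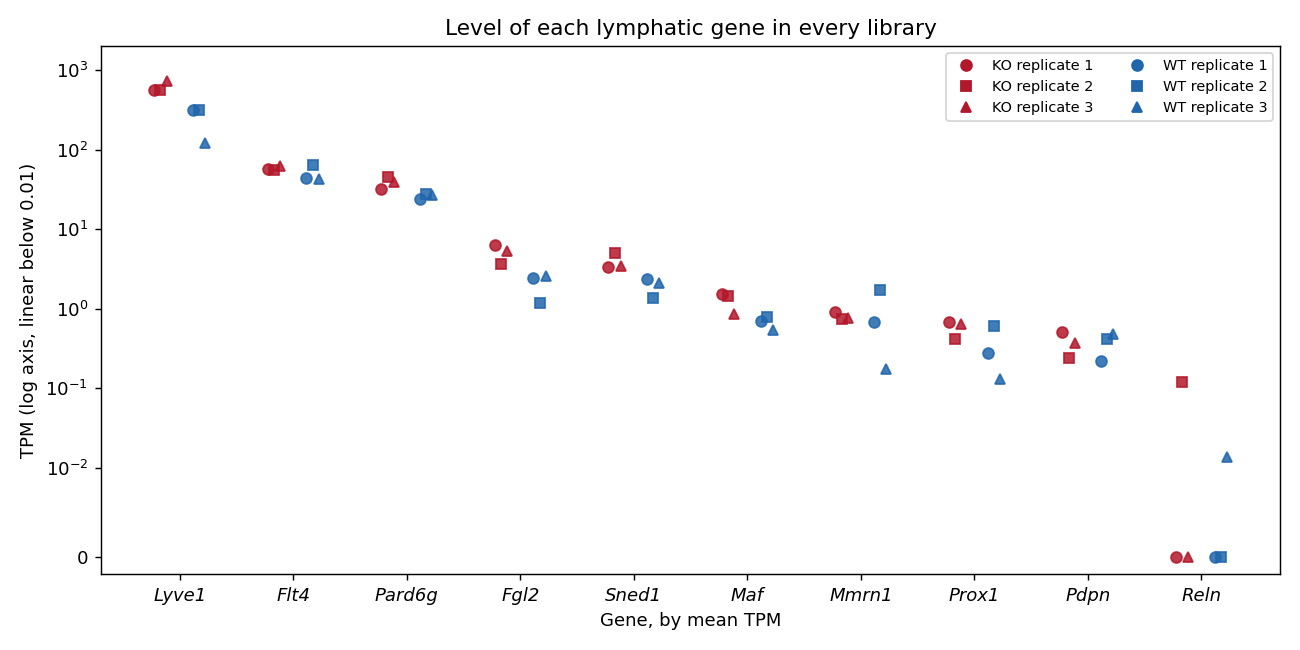
TPM of each of the 10 genes (x axis, ordered by mean level) in every library (y axis, log scale that turns linear below 0.01), with KO libraries in red left of WT libraries in blue and 1 symbol per replicate number. Lyve1 lies between 120 and 730 TPM, while Prox1, Pdpn and Reln stay under 1 TPM.

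Of the 10 genes, 9 had counts high enough to be tested and Reln did not. None was called at a Benjamini-Hochberg adjusted p of 0.05 over the 14667 tested genes by edgeR's quasi-likelihood test, in which 5 genes, or 0.0341%, were called (0.0205% called higher). At an unadjusted p under 0.05 there were 4 of the 9, all higher in the libraries labelled KO (Lyve1, Sned1, Fgl2 and Pard6g), against 6.88% of tested genes on that side. In 5 of the 9 (these 4 and Maf) all KO libraries lay above all WT libraries, as in 10.9% of tested genes; in 20.3% of tested genes the groups were apart in either direction. The log2 fold change was positive in 7 of the 9 and in 50.9% of tested genes, and the median was 0.86 for the 9, against 0.01 over all tested genes. Since the 10 genes were chosen with earlier results of these data known, these counts describe them and support no direction. DESeq2, run as an alternative, called 396 genes, 2.7% of those tested (1.48% called higher), and among them Lyve1 (adjusted p = 0.00348) and Sned1 (adjusted p = 0.0386).

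**Figure D2:**
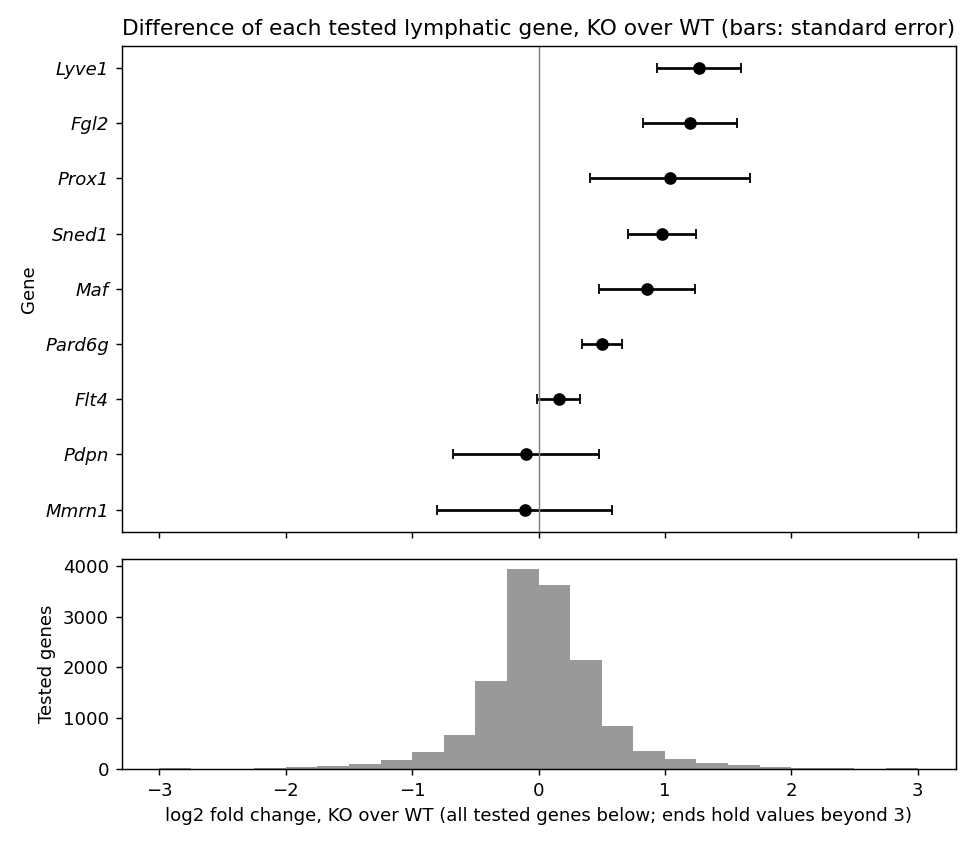
Upper panel, log2 fold change of the libraries labelled KO over those labelled WT (x axis) for the 9 tested genes, with bars for the standard error from edgeR. Lower panel, number of tested genes per bin of the same quantity (all 14667, centred at a median of 0.01); Lyve1 lies at 1.27, Prox1 at 1.04 with the second widest bar, and Flt4 at 0.16.

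Lyve1 (ENSMUSG00000030787, mm10 chromosome 7, 110850607 to 110863239, minus strand) had 789, 828 and 1080 CPM in KO replicates 1, 2 and 3, against 467, 460 and 194 CPM in WT replicates 1, 2 and 3. The groups did not overlap, and WT replicate 3 was the lowest library by far. The log2 fold change was 1.27 (SE 0.33, edgeR adjusted p = 0.282), a fold of 2.41. In bulk libraries fewer cells of a type and less RNA per cell cannot be told apart. The log2 fold change was 0.96 without WT replicate 3 and 1.44 to 1.45 without another WT library, and the female pair alone (789 and 467 CPM) had a fold of 1.69. In TPM, Lyve1 ranked 189 to 257 among all genes in KO libraries and 499 to 1349 in WT libraries.

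Flt4 (ENSMUSG00000020357, chromosome 11, 49609263 to 49652739, plus strand), the VEGF-C receptor, was nearly level. It had 190, 191 and 220 CPM in KO replicates 1, 2 and 3, against 153, 223 and 161 CPM in WT replicates 1, 2 and 3. The ranges overlapped, with the highest value in WT replicate 2, and the log2 fold change was 0.16 (SE 0.17, edgeR adjusted p = 0.706). With 5019 to 6584 counts per library this is the best measured of the 10 genes after Lyve1.

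Prox1 (ENSMUSG00000010175, chromosome 1, 190118035 to 190170714, minus strand), the factor that sets lymphatic identity, had 85, 42 and 77 counts in KO replicates 1, 2 and 3, against 25, 62 and 18 counts in WT replicates 1, 2 and 3. In CPM these were 2.87, 1.39 and 2.61 in KO libraries, against 0.761, 2.1 and 0.477 in WT libraries. WT replicate 2 lay above KO replicate 2, so the groups overlapped. The log2 fold change of 1.04 was close to that of Lyve1 in size but had a standard error of 0.63 (edgeR adjusted p = 0.51). It was 1.88 without WT replicate 2, 0.68 without WT replicate 3 and 0.62 in male libraries only. The spread within WT was wider than counting error: exact 95% Poisson intervals were 47.5 to 79.5 counts for WT replicate 2 and 16.2 to 36.9 and 10.7 to 28.4 counts for WT replicates 1 and 3. The spread within KO was wider too, with intervals of 30.3 to 56.8 counts for KO replicate 2 and 67.9 to 105 and 60.8 to 96.2 counts for KO replicates 1 and 3. These intervals cover counting error only.

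Maf (ENSMUSG00000055435, chromosome 8, 115682942 to 115707794, minus strand), a basic leucine zipper factor of lymphatic endothelium and also of macrophages and T cells, was measured at similarly low depth. It had 93, 94 and 55 counts in KO replicates 1, 2 and 3, against 50, 50 and 47 counts in WT replicates 1, 2 and 3, or 3.14, 3.1 and 1.86 CPM in KO libraries against 1.52, 1.69 and 1.25 CPM in WT libraries. KO replicate 3 was close to WT replicate 2, and the groups were just apart. Its log2 fold change was 0.86 (SE 0.38, edgeR adjusted p = 0.406).

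Sned1, Fgl2 and Pard6g are less specific to lymphatics. Sned1 (ENSMUSG00000047793, chromosome 1, 93235841 to 93301065, plus strand), an extracellular matrix protein, had 17.4, 27.3 and 19 CPM in KO replicates 1, 2 and 3, against 12.6, 7.48 and 12.2 CPM in WT replicates 1, 2 and 3 (log2 fold change 0.98, SE 0.27, edgeR adjusted p = 0.293). All KO libraries were above all WT libraries, and KO replicate 2 was the highest. Exons of Mterf4 overlap it on the other strand, and that gene had 423 to 497 counts in KO libraries and 442 to 547 in WT libraries. Without a statement on strand, reads of the overlap cannot be assigned to either gene.

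Fgl2 (ENSMUSG00000039899, chromosome 5, 21372642 to 21378374, plus strand), a fibrinogen-like protein that can activate prothrombin, had 13.2, 7.96 and 11.6 CPM in KO replicates 1, 2 and 3, against 5.39, 2.61 and 6.28 CPM in WT replicates 1, 2 and 3 (log2 fold change 1.20, SE 0.37, edgeR adjusted p = 0.315). Its lowest library was WT replicate 2 rather than WT replicate 3. Pard6g (ENSMUSG00000056214, chromosome 18, 80046890 to 80119639, plus strand), a subunit of the PAR polarity complex, had 55.4, 81.2 and 70.8 CPM in KO replicates 1, 2 and 3, against 43.9, 49.5 and 53 CPM in WT replicates 1, 2 and 3 (log2 fold change 0.50, SE 0.16, edgeR adjusted p = 0.322). KO replicate 1 was only just above WT replicate 3.

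Mmrn1, Pdpn and Reln, which encode 2 secreted proteins and a membrane mucin, overlapped between the labels. Mmrn1, the multimerin stored in platelets and endothelium, had 72, 63 and 63 counts in KO replicates 1, 2 and 3, against 63, 140 and 21 counts in WT replicates 1, 2 and 3. Both its highest and its lowest library were WT, and its log2 fold change was -0.11 (SE 0.69), turning to 0.84 without WT replicate 2. Pdpn, whose product binds the platelet receptor encoded by Clec1b, had 14, 7 and 11 counts in KO replicates 1, 2 and 3, against 7, 12 and 20 counts in WT replicates 1, 2 and 3 (log2 fold change -0.10, SE 0.58). Reln, a large secreted glycoprotein that guides neurons and is also made by lymphatic endothelium, had 26 counts in KO replicate 2, 4 counts in WT replicate 3 and 0 in each of the other 4 libraries. A count of 0 allows up to 3 counts, or 0.0913 to 0.102 CPM in those 4 libraries, so no fold is given.

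Whether Lyve1 moved with Prox1 was asked within each library, where scaling between libraries cancels. The log2 ratio of Lyve1 to Prox1 was 8.05, 9.12 and 8.64 in KO replicates 1, 2 and 3, against 9.08, 7.71 and 8.39 in WT replicates 1, 2 and 3. The groups overlapped and their means differed by 0.21 (8.60 ± 0.54 in KO, 8.40 ± 0.69 in WT, mean ± SD, n = 3 each; exact two-sided permutation p = 0.7). The difference was -0.13 without WT replicate 2 and -0.05 without KO replicate 2, so its sign rested on single libraries, and it was 0.68 with TPM in place of CPM, 0.68 with 1 CPM added in place of 0.1 CPM and 0.83 in male libraries only. A p of this size does not show that both genes changed alike.

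The ratio to Flt4 behaved otherwise. The log2 ratio of Lyve1 to Flt4 was 2.05, 2.12 and 2.30 in KO replicates 1, 2 and 3, against 1.61, 1.04 and 0.27 in WT replicates 1, 2 and 3. All KO libraries lay above all WT libraries, and the means differed by 1.18 (2.16 ± 0.13 in KO, 0.98 ± 0.67 in WT, mean ± SD, n = 3 each). The exact two-sided permutation p was 0.1, the smallest that 3 libraries against 3 allow, and 0.45 after Benjamini-Hochberg adjustment over the 9 ratios of Lyve1 to another of the 10 genes. The difference was 0.83 without WT replicate 3. The ratio to Mmrn1 was the only other one without overlap between the labels, with a difference of 1.05 (exact permutation p = 0.1); the remaining ratios had differences of 0.12 (Fgl2) to 1.41 (Pdpn).

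**Figure D3:**
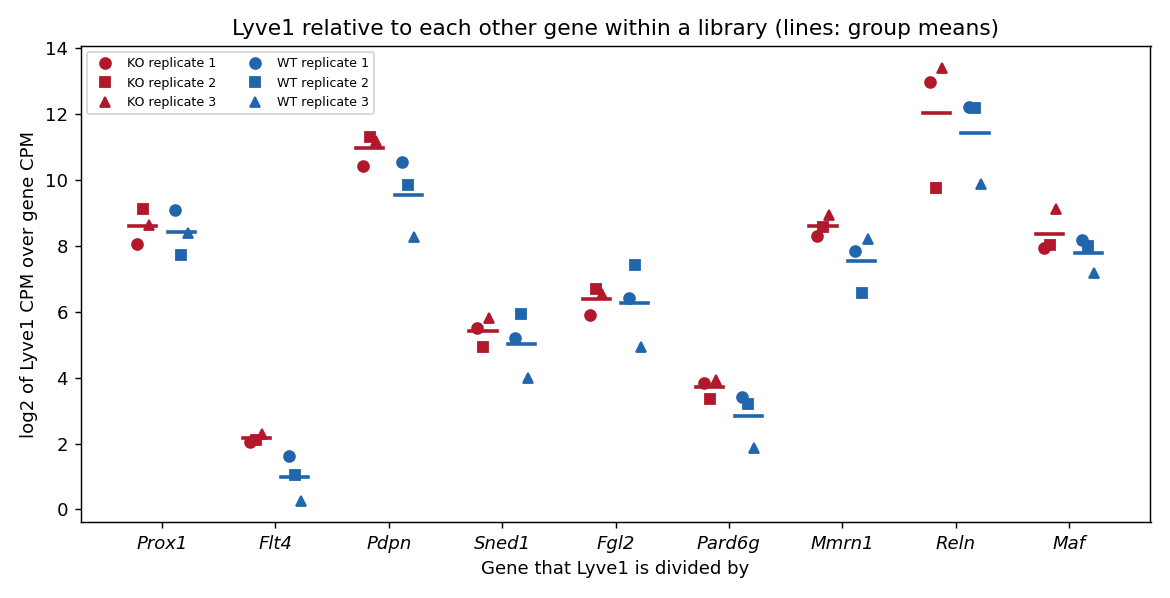
Log2 of Lyve1 CPM over the CPM of each other gene (y axis, 0.1 CPM added to both) within each library, with KO libraries in red left of WT libraries in blue and lines at the group means. The KO symbols lie above all WT symbols for Flt4 and Mmrn1, and overlap with them for Prox1.

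Across the 6 libraries the genes followed different orders. Lyve1 and Prox1 shared their lowest library, WT replicate 3, but WT replicate 2, at 2.1 CPM, lay inside the KO range for Prox1 and below it for Lyve1. Mmrn1 shared with Prox1 a high WT replicate 2 and a low WT replicate 3, whereas Sned1 and Fgl2 were lowest in WT replicate 2. By the root mean square distance of centred log2(CPM + 0.1) values over the 6 libraries, Maf ranked 446 and Prox1 234 among 11647 genes by likeness to Lyve1 (distances 0.56 and 0.51), while Flt4 ranked 2318 and Fgl2 3453. The 5 genes most like Lyve1 were Grb14 (distance 0.13), Setbp1 (0.15), Adpgk (0.25), Ifi208 (0.26) and Pcolce2 (0.28). Grb14, an adaptor of receptor tyrosine kinases, averaged 20.2 ± 1.42 CPM in KO libraries and 7.95 ± 3.01 CPM in WT libraries (SD, n = 3 each). The 5 most like Prox1 were Enpp6, Arc, Samsn1, Junb and Ccm2l, at distances of 0.35 to 0.40. Likeness over 6 libraries is a description and includes the difference between the labels.

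**Figure D4:**
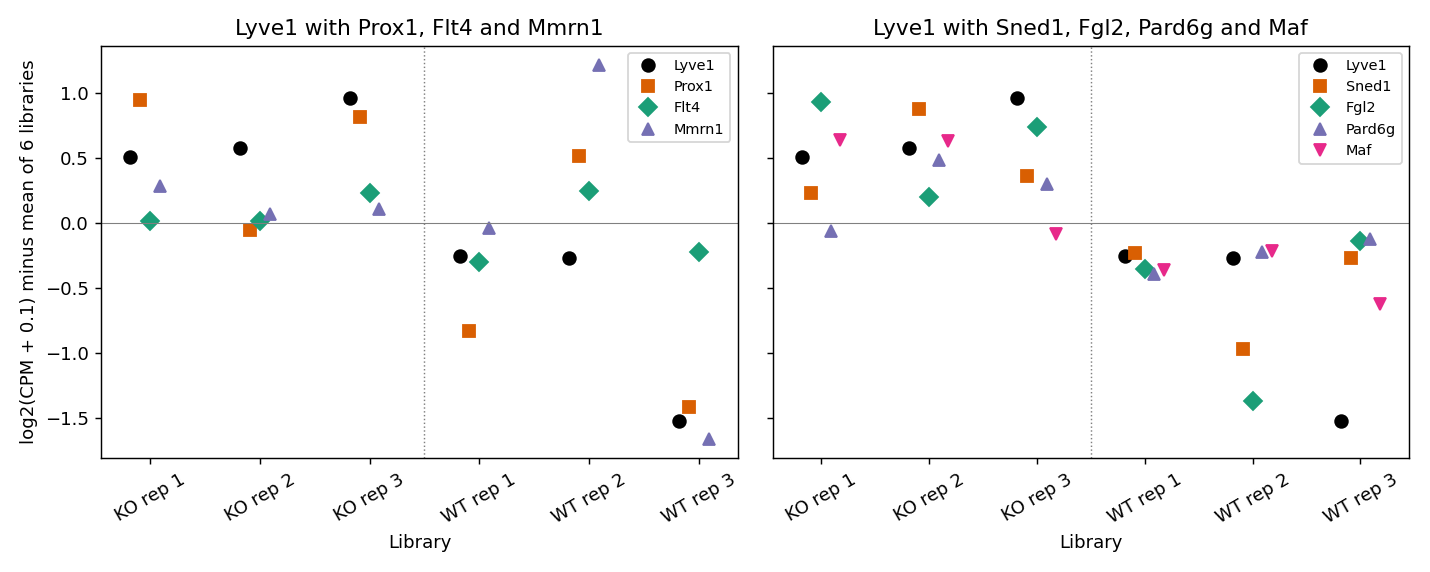
Log2(CPM + 0.1) of each gene minus its mean over the 6 libraries (y axis) by library (x axis, KO left of the dotted line and WT right of it), with Lyve1 repeated in both panels. WT replicate 2 is high for Prox1 and Mmrn1 and low for Sned1 and Fgl2, and WT replicate 3 is low for Lyve1, Prox1 and Mmrn1.

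Promoter sequence was read because Dnmt3a methylates CG dinucleotides. A link between the CG content and the differences was not tested. Of the 10 genes, 7 had a window in RefSeq's promoter table (GRCm38.p6, not Lyve1, Pard6g or Maf). Each window of 300 bases runs from 250 bases before a start site to 50 bases from it. Sned1 and Fgl2, whose groups did not overlap, are shown beside Flt4 and Prox1, whose groups did, with every CG in capitals.

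Sned1 (chr1:93235647-93235946, plus strand): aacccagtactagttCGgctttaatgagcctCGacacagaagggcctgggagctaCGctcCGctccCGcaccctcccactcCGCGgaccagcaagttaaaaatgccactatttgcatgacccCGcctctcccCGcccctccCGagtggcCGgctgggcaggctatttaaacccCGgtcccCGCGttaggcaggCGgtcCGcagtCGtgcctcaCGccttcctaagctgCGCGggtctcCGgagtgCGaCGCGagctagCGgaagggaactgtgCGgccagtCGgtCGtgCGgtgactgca
Fgl2 (chr5:21372423-21372722, plus strand): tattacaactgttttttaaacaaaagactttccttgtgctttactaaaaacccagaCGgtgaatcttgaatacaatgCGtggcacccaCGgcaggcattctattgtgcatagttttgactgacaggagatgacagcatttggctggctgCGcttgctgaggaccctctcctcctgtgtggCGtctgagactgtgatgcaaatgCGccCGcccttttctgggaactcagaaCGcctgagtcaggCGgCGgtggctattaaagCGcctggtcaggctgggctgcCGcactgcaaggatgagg
Flt4 (chr11:49609429-49609728, plus strand): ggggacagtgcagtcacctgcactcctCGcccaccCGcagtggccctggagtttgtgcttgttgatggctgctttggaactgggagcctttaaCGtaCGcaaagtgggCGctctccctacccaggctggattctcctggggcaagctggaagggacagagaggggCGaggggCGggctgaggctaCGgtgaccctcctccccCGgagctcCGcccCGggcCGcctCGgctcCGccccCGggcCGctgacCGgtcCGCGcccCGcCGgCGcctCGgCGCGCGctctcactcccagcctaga
Prox1 (chr1:190170778-190171077, minus strand): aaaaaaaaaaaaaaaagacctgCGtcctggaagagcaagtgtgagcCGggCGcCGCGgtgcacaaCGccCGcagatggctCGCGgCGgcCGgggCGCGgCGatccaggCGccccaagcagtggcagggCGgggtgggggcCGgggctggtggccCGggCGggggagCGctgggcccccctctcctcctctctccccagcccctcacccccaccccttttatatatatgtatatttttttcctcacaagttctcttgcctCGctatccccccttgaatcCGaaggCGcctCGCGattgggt

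The motif searched was CG, which reads the same on both strands, and 94.6% of the 32851 windows of all genes hold at least 1. Sned1 had 29, a number that 12.9% of all windows reach, and Fgl2 had 12, which 39.6% reach. Flt4 had 26 (16.9% reach it) and the Prox1 window shown had 25 (18.4%). A second Prox1 window had 14 (36.3%). The windows of Sned1 and Fgl2, without overlap between the labels, and of Flt4 and Prox1, with overlap, thus all exceeded the median of 7. So did Reln, hardly expressed, with 47 (1.44%). Pdpn with 7 (52.1%) and Mmrn1 with 3 (76.7%), also overlapping, did not exceed it. Methylation was not measured in these libraries.

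Other genes of lymphatic development gave the setting. Of 11 transcription factors, 9 were tested and 0 were called by edgeR or DESeq2. At an unadjusted p under 0.05 there were 2, both higher in KO libraries, against 6.88% of tested genes higher and 12.6% in either direction. The median log2 fold change was 0.27. The 11 summed to 805 to 1168 CPM in KO libraries and 695 to 764 CPM in WT libraries, without overlap. Gata2, needed for lymphatic valves, had 283, 635 and 409 CPM in KO replicates 1, 2 and 3, against 237, 251 and 287 CPM in WT replicates 1, 2 and 3 (log2 fold change 0.78, SE 0.27). The ranges overlapped, since KO replicate 1 lay just under WT replicate 3. Klf2, a flow-responsive factor, had a log2 fold change of 0.40 (SE 0.21). Sox18, which activates Prox1 in the embryo, was named after its values were seen: it had 98, 153 and 141 CPM in KO libraries, against 81.1, 77.9 and 97.1 CPM in WT libraries (log2 fold change 0.61, SE 0.18, edgeR adjusted p = 0.302). Nr2f2, its partner in turning on Prox1 in veins, overlapped (log2 fold change 0.27, SE 0.36).

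Among 18 genes of VEGF-C, angiopoietin and adrenomedullin signalling, all were tested and 0 were called by edgeR. At an unadjusted p under 0.05, 2 were higher and 0 lower, against 6.88% of tested genes higher and 12.6% in either direction. The median log2 fold change was 0.11. DESeq2 called 1, Vegfc. Calcrl, the adrenomedullin receptor, and Tie1, an endothelial receptor kinase, had the highest mean CPM. Calcrl had a log2 fold change of -0.20 (SE 0.24), and Tie1 one of -0.09 (SE 0.12). Vegfc, the ligand of Flt4, was singled out after its values were seen. It had 46.5, 42.7 and 55 CPM in KO replicates 1, 2 and 3, against 32.6, 29 and 20.8 CPM in WT replicates 1, 2 and 3, without overlap (log2 fold change 0.81, SE 0.19, edgeR adjusted p = 0.282). Like Lyve1, Vegfc had its highest value in KO replicate 3 and its lowest in WT replicate 3.

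A further 20 lymphatic markers went both ways. Of the 20, 13 were tested and 0 were called by edgeR. The log2 fold change was positive in 8 of the 13 and in 50.9% of tested genes, and the median was 0.05. At an unadjusted p under 0.05, 0 were higher and 2 were lower, against 12.6% of tested genes in either direction. DESeq2 called those 2 lower genes. Scn3b, a sodium channel subunit, and Stab1, a scavenger receptor, had the highest mean CPM. The log2 fold change of Scn3b was 0.11 (SE 0.12), and that of Stab1 was 0.17 (SE 0.23). The 2 lower genes, chosen after their values were seen, were Ackr2, a chemokine-scavenging receptor of lymphatic endothelium, and Sema3a, a guidance ligand. Ackr2 had 99.3, 143 and 123 CPM in KO replicates 1, 2 and 3, against 219, 241 and 366 CPM in WT replicates 1, 2 and 3 (log2 fold change -1.18, SE 0.23, edgeR adjusted p = 0.24). Like Scn3b (696 to 832 CPM over all libraries) and Stab1 (336 to 653 CPM), Ackr2 lay far above Prox1 (0.477 to 2.87 CPM). Which cells carried these transcripts was not tested. Sema3a had 5.17, 4.06 and 5.69 CPM in KO libraries, against 8.4, 9.24 and 9.15 CPM in WT libraries (log2 fold change -0.84, SE 0.23, edgeR adjusted p = 0.293). For Ackr2 and Sema3a every KO library lay below every WT library. The groups were apart in either direction in 20.3% of tested genes.

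Genes that make, cut or bind hyaluronan, the ligand of Lyve1, went both ways: 12 of 13 were tested, with log2 fold changes of -1.21 (Cemip) to 1.21 (Stab2), 7 of them positive. Of the 12, 0 were called by edgeR or DESeq2 or reached an unadjusted p under 0.05, and the median was 0.14. Hyal2, a hyaluronidase, and Cemip2, a cell-surface hyaluronidase, overlapped between the labels: the log2 fold change of Hyal2 was -0.12 (SE 0.23), and that of Cemip2 was 0.22 (SE 0.13). Of 17 relatives and partners of the 10 genes 14 were tested and 0 were called by edgeR. At an unadjusted p under 0.05, 1 was higher and 1 lower, against 12.6% of tested genes in either direction. The median was 0.16, and DESeq2 called 1, Vldlr. Mmrn2 and Emilin1, relatives of Mmrn1, were named for their CPM. Mmrn2 had a log2 fold change of -0.20 (SE 0.13). For Emilin1 it was -0.44 (SE 0.14), and its groups did not overlap (97.2, 71.9 and 90.5 CPM in KO libraries, against 104, 126 and 121 CPM in WT libraries). Vldlr, a receptor of reelin, was chosen after its values were seen: it had 1.66, 0.66 and 2.17 CPM in KO replicates 1, 2 and 3 and 0 counts in each WT library.

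Markers of other cells that carry these genes were read in the same libraries. Of 10 markers of Lyve1-positive interstitial macrophages, 4 (Timd4, Cd163, Cd209f and Ccl8) were at 0 in all libraries, and Folr2 and Mrc1 were at 0.102 to 0.338 and 1.46 to 2.77 CPM in KO libraries and at 0.477 to 0.578 and 1.94 to 4.27 CPM in WT libraries. The list summed to 76 to 203 CPM in KO libraries and 48.8 to 399 CPM in WT libraries, most of it Cbr2 and Gas6. Cbr2 had a log2 fold change of -0.75 (SE 1.01), which turned to 0.16 without WT replicate 1 and to 0.37 with limma's voom weights. Cbr2 put the 6 libraries in the same order as the type 2 marker Sftpc. WT replicate 1 was highest (342 and 7762 CPM) and WT replicate 2 lowest (9.28 and 173 CPM). Gas6 lay lower in every KO library (21.3 to 32 CPM) than in any WT library (34.3 to 58.9 CPM). On the log2 scale it differed by -0.77 (SE 0.24), and by -0.97 to -0.60 with single libraries left out. Of the 5 tested markers 0 were positive, with a median of -0.75. The part of Lyve1-positive macrophages in the Lyve1 difference was not tested. Of 11 general macrophage markers, 4 (Csf1r, C1qc, Marco and Itgax) were at 0 in every library. Adgre1, C1qa, C1qb, Siglecf and Fcgr1 were at 0 to 0.578 CPM, and Cd68 at 3.39 to 5.59 CPM. The list summed to 71 to 179 CPM in KO libraries and 79.4 to 87.4 CPM in WT libraries, most of it Mertk. Mertk had 66.7 to 175 CPM in KO libraries, highest in replicate 2, and 75.4 to 81.7 CPM in WT libraries. The part of macrophages in this sum was not tested. Platelet markers, read because platelets hold Mmrn1, summed to 11.5 to 21.5 CPM in KO libraries and 11.8 to 26.9 CPM in WT libraries. The median log2 fold change of the 10 tested platelet markers was -0.26. Mesothelial markers summed to 2.4 to 10.1 and 3.05 to 35.9 CPM in KO and WT libraries, and T and NK cell markers to 2.25 to 5.21 and 2.07 to 3.45 CPM.

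Alveolar type 1 markers summed to 547 to 1043 CPM in KO libraries and 558 to 928 CPM in WT libraries, and type 2 markers to 797 to 3796 and 352 to 9743 CPM, so both ranges overlapped. Much of the type 1 sum was Clic5, at 419 to 894 CPM in KO libraries and 457 to 531 CPM in WT libraries. Clic5 was highest in KO replicate 2, as were the aerocyte capillary markers Car4 and Ednrb. The part of epithelium in this sum was not tested. Among the 9 tested type 1 markers 4 were positive. DESeq2 called 1, Hopx, whose groups did not overlap (log2 fold change 1.14, SE 0.31, edgeR adjusted p = 0.293). Summed pericyte and smooth muscle markers overlapped between the labels, at 124 to 569 CPM in KO libraries and 116 to 485 CPM in WT libraries. Fibroblast markers did not overlap: 12 genes summed to 312 to 458 CPM in KO libraries and 153 to 214 CPM in WT libraries. By edgeR 1 of 12 was called, Col3a1 (log2 fold change 1.22, SE 0.11, edgeR adjusted p = 0.0223). DESeq2 called 5 higher, against 1.48% of all tested genes. The log2 fold change was positive in 11 of 12 and in 50.9% of all tested genes, and no marker was at 0 in all libraries. The call of Col3a1 ended without each of the 6 libraries in turn (adjusted p = 0.0781 to 0.293). Their part in the difference of Lyve1, Sned1, Fgl2, Pard6g or Maf was not tested.

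Markers of the other endothelial classes were read as well, since Lyve1 and Flt4 occur in blood endothelium. Of 13 venous markers 12 were tested, with 0 called by edgeR and 4 called higher by DESeq2, against 1.48% of tested genes. At an unadjusted p under 0.05, 6 were higher and 0 lower, against 6.88% of tested genes higher. The 13 summed to 3405 to 5316 CPM in KO libraries and 2346 to 2732 CPM in WT libraries, without overlap. Most of the difference between these sums came from Eln, elastin, and Vwf, von Willebrand factor. Eln averaged 1648 CPM in KO and 606 CPM in WT libraries (log2 fold change 1.44, SE 0.28, edgeR adjusted p = 0.24). Vwf averaged 1050 and 508 CPM (log2 fold change 1.05, SE 0.21, edgeR adjusted p = 0.24). In 5 of the 12, Eln and Vwf included, all KO libraries lay above all WT libraries (10.9% of tested genes). The others overlapped, among them Nr2f2, Selp, Bst1, Car8 and Aplnr. Aplnr had a log2 fold change of -0.08 (SE 0.19). Summed arterial, general capillary and aerocyte markers overlapped between the labels. The sums were 3270 to 4265, 9468 to 12121 and 4179 to 7666 CPM in KO libraries and 3913 to 5683, 10196 to 10726 and 5388 to 6179 CPM in WT libraries. Single markers lay apart in each list: 3 of 14 arterial ones higher and 3 lower, and 2 of 10 higher in each other list (20.3% of tested genes in either direction). DESeq2 called 0 general capillary markers and 2 aerocyte markers, both higher (1.48% of tested genes). These were Fibin (log2 fold change 1.22, SE 0.33, edgeR adjusted p = 0.293) and Tbx2 (0.87, SE 0.24, edgeR adjusted p = 0.293). Of the 14 arterial markers 2 were higher and 2 lower at an unadjusted p under 0.05, against 12.6% of tested genes in either direction. The lower ones, chosen after their values were seen, were Gja4, a gap junction protein (log2 fold change -1.26, SE 0.30, edgeR adjusted p = 0.282), and Sox17, an arterial transcription factor (-0.42, SE 0.14, edgeR adjusted p = 0.332). Gja4 had 994, 802 and 646 CPM in KO replicates 1, 2 and 3, against 1402, 1559 and 2890 CPM in WT replicates 1, 2 and 3, and DESeq2 called it lower (adjusted p = 0.000862). Its log2 fold change was -0.86 without WT replicate 3. Mgp, a matrix protein, was called higher (log2 fold change 1.49, SE 0.12, edgeR adjusted p = 0.016), a call that held without KO replicate 2 (adjusted p = 0.0246) and ended without any 1 of the other 5 libraries (adjusted p = 0.0581 to 0.172). The part of the venous and arterial genes in the Lyve1 difference was not tested.

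**Figure D5:**
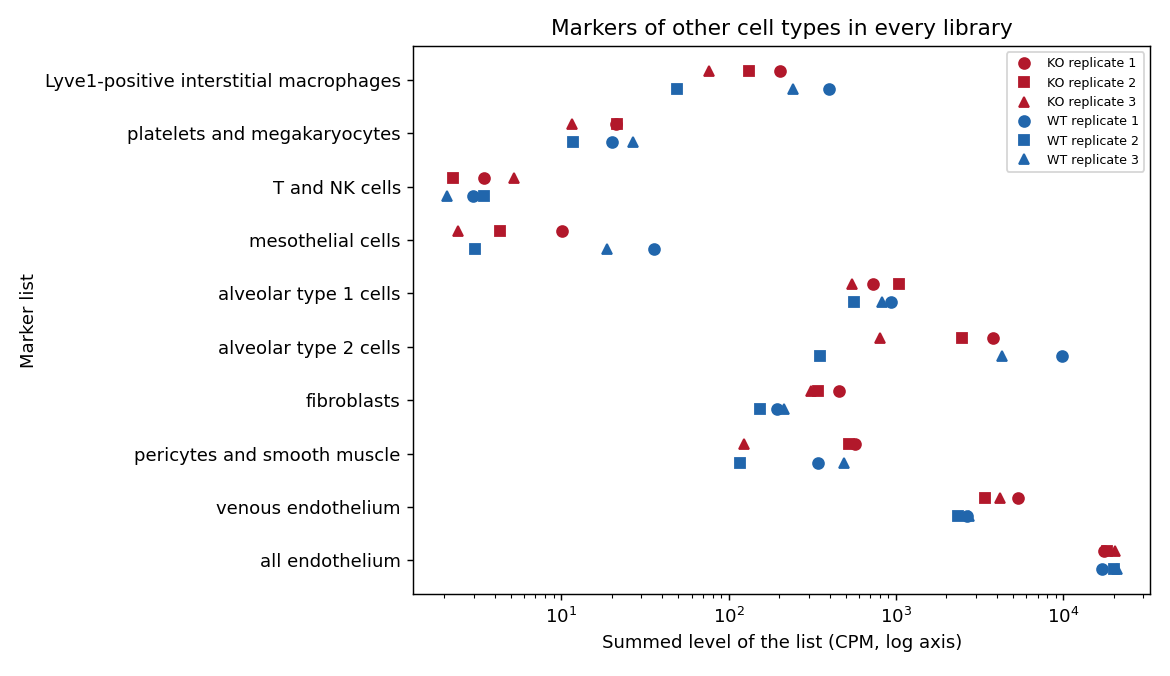
Summed CPM of each marker list (x axis, log scale) in every library, with KO libraries in red above WT libraries in blue. Fibroblast and venous sums lie apart between the labels (312 to 458 against 153 to 214 CPM, and 3405 to 5316 against 2346 to 2732 CPM), and the other 8 lists plotted overlap.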

How the data were processed

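Libraries of sorted lung endothelial cells were made by a low-input SMARTer protocol and read as paired ends, per the labels' protocols. The authors deposited estimated counts and TPM per Ensembl gene; kallisto (version not given) and mm10 were used, per the submitters' processing notes. Neither strand nor annotation is stated by the labels or headers. The deposited TPM columns sum to 875864 to 885609. Symbols came from GENCODE M21 (24299 of 24520 rows matched).

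Rounding the estimated counts changed 0 of them. Sample titles gave the groups. All 6 libraries entered edgeR 4.0.16 (R 4.3.3) with TMM factors; filterByExpr kept 14667 genes, with Benjamini-Hochberg adjusted p called at 0.05; SE is the log2 fold change over the root of F. The script was tested on simulated data. Within-library ratios used CPM plus 0.1 and an exact permutation test. All pairs of libraries differed beyond counting noise, with chi-square over its degrees of freedom at 44.8 to 183. The alternatives are DESeq2 1.42.0, RLE, upper-quartile and no factors, an unfiltered table, a minimum mean count of 50, a replicate block, robust dispersions, limma 3.58.1 with voom weights, on log2(TPM + 1) with and without a TPM filter, or on log2(TPM + 0.1), sex as a covariate, male libraries only, and each library left out. The 10 genes and all lists were chosen with earlier results of these data known. Named besides the 10 were Dnmt3a, for some lists up to 4 called genes or else the 2 most abundant, genes a list's sum rests on, and the 5 genes of at least 50 mean counts nearest to Lyve1 and to Prox1. For the other lists the most abundant genes were not all named. Genes outside this rule named in the text were chosen after their values were seen.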

Additional observations from a re-analysis of the deposited data

Results flagged for a closer look

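Pdpn had folds on opposite sides of 1 in the sexes read from Xist and Y-linked genes. In the 1 female library per label it had 14 counts under KO and 7 under WT, a fold of 2.22 in CPM. In the 2 male libraries per label it had 7 and 11 counts under KO and 12 and 20 under WT, a fold of 0.644, with both KO values in CPM below both WT values. The difference between the sexes was not tested, and exact 95% Poisson intervals of the counts overlap in both sexes. They were 7.65 to 23.5 under KO and 2.81 to 14.4 under WT in females, and 2.81 to 14.4 and 5.49 to 19.7 under KO and 6.2 to 21 and 12.2 to 30.9 under WT in males.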

How the results depend on the processing

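None of the 9 tested lymphatic genes was called under 19 of the 20 alternative fits, and DESeq2 called 2, Lyve1 and Sned1. The log2 fold changes of Lyve1, Sned1, Fgl2, Pard6g and Flt4 kept their sign in 20 of 20 fits, at 0.96 to 1.53, 0.75 to 1.22, 0.90 to 1.45, 0.37 to 0.63 and 0.05 to 0.35; adjusted p for Lyve1 reached from 0.00348 to 0.607. Prox1 (0.25 to 1.88) and Maf (0.44 to 1.07) kept theirs in the 19 fits that tested them; Mmrn1 (-0.59 to 0.84) and Pdpn (-0.64 to 0.21) did not. Over all genes 5 were called; DESeq2 called 396, log2(TPM + 1) 3, log2(TPM + 0.1) 1, sex as a covariate 2 and male libraries only 0, and leaving out each library gave 1 to 4. Whether the replicate numbers pair the libraries could not be decided, since deviations from the mean of so few libraries are bound to sum to 0. These deviations correlated at 0.282, -0.0477 and -0.18 for numbers 1, 2 and 3. Only number 1, which is also the only female pair, correlated best with itself. The replicate block called 0 genes, Dnmt3a (adjusted p = 0.0679) included, and no lymphatic gene (Lyve1 log2 fold change 1.35, adjusted p = 0.468). The Lyve1 to Prox1 difference reversed to -0.13 without WT replicate 2 and -0.05 without KO replicate 2, ranged from -0.13 to 0.55 over the single-library omissions, and was 0.21 with the replicate block. The Lyve1 to Flt4 difference stayed positive in its 10 alternatives, at 0.83 without WT replicate 3, 1.55 in male libraries and 1.18 with the block. The causes were not tested. Prox1, Maf, Mmrn1, Pdpn and Reln had under 150 counts in every library, so counting error adds to their spread. Prox1 and Mmrn1 spread beyond it among WT libraries, and Prox1, Maf and Reln among KO libraries.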
